A study of Rattus norvegicus with 6 samples.

Results

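The DNA replication and repair genes comprise 44 genes given by symbol, 35 of the replication machinery and 9 of DNA repair, which were looked up in a table of 17066 genes. Of the 44, 41 were listed, 33 of replication and 8 of repair. Dna2, Rnaseh2c and Msh6 were not analysed here, which left the group without a mismatch repair factor. The cells were primary hippocampal neurons of Sprague-Dawley rat embryos at embryonic day 18, infected with lentivirus on day 5 or 6 of culture and harvested on day 14. The virus carried EGFP alone (the control), CCNY-WT to overexpress Cyclin Y (CCNY), or CCNY-shRNA to knock it down, so that every group, the control included, was infected. There were 2 bulk RNA libraries for each of these 3 conditions. Nothing states that replicates came from separate cultures, so the p-values measure only the spread between these libraries, which may be technical.

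Levels are in FPKM, fragments per kilobase of transcript and per 1e+06 mapped fragments, a scale per length. Comparing genes on it, subunits of a complex included, depends on the gene annotation used for counting, which is not given. The depth of the libraries relative to EGFP replicate 1, read from the steps between low values, was 0.818 to 1.33. Ccny, the targeted gene, stood at 43.1 and 42.3 in the EGFP pair, 108 and 109 with CCNY-WT, and 5.98 and 6.19 with CCNY-shRNA, which follows the labels. Fragments of the introduced and the endogenous gene were not separated. The 12 neuron markers examined were all expressed and summed to 3811 and 3849 FPKM for EGFP, 3744 and 3753 for CCNY-WT and 3842 and 3805 for CCNY-shRNA, though 1 of them, Gad2, a GABA-synthesizing enzyme of inhibitory neurons, fell with knockdown. It was at 170.4 and 173 in the EGFP pair, 176 and 181 with CCNY-WT, and 129 and 129 with CCNY-shRNA. Its log2 changes were -0.41 (SE 0.0494, limma adjusted p = 0.0226) against EGFP and -0.46 (SE 0.0494, limma adjusted p = 0.0165) against CCNY-WT. Of the 12, 8 lay below EGFP with knockdown and 4 above, where 50.2% of all genes tested lay above. Astrocyte markers, 7 of 8 listed, summed to 535 and 574, 568 and 563 and 468 and 540 in the same order. With knockdown 5 of these 7 lay below EGFP and 2 above. Slc1a2 was furthest below, with a log2 change of -0.32 (SE 0.0658, limma adjusted p = 0.0768). Oligodendrocyte lineage markers, 8 of 8 listed with Sox10 at 0, summed to 44.5 and 44.2, 47.6 and 41.9 and 40.3 and 37.2. Microglia markers, 8 of 8 listed with Aif1 and Cx3cr1 at 0, summed to 0.546 and 0.6005, 1.47 and 0.745 and 1.08 and 0.712. Markers of dividing cells, 11 of 12 listed, summed to 7.53 and 6.38, 5.77 and 6.41 and 7.903 and 7.13, and Mki67 and Top2a reached at most 1.02 and 0.561 in any library. Ccnb1 was higher, at 1.02 to 2.02 across the libraries, and Cdk1 reached 1.85. The 3 tested, Ccnb1, Cdk1 and Bub1, had log2 changes with knockdown of -0.60, 0.44 and 0.11 (limma adjusted p = 0.224, 0.478 and 0.829). The part of other cell types in the values of the members was not tested, and in bulk RNA fewer cells of a type and less RNA per cell cannot be told apart.

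DNA replication copies the genome before a cell divides. The MCM helicase opens the helix, polymerase alpha with its primase lays down short primers, and polymerases epsilon and delta extend them, held on the template by the sliding clamp PCNA, which the clamp loader RFC puts in place. RPA coats exposed single strands, and FEN1, RNase H enzymes and DNA ligase 1 remove primers and join the fragments of the lagging strand. Neurons have left the cell cycle, but they keep base excision repair, in which glycosylases such as OGG1 and UNG remove damaged bases, APEX1 cuts the strand, polymerase beta fills the gap and DNA ligase 3 with XRCC1 seals it.

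Subunits of the same replication complex differed widely in FPKM, and most repair members were well expressed. The mean FPKM over the 6 libraries ran from 0.168 to 31.2 among the 33 replication members, with a median of 6.13. Among the 8 repair members it ran from 0.407 to 55.4, with a median of 26.96. The median was 17.1 over the 10188 genes that reached an FPKM of 1 in 2 libraries, the filter for testing. Of the members, 35 met it, 28 of replication and 7 of repair, while Mcm3, Mcm5, Pold1, Pole, Pole2 and Ung stayed under 1 in every library.

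**Figure D1:**
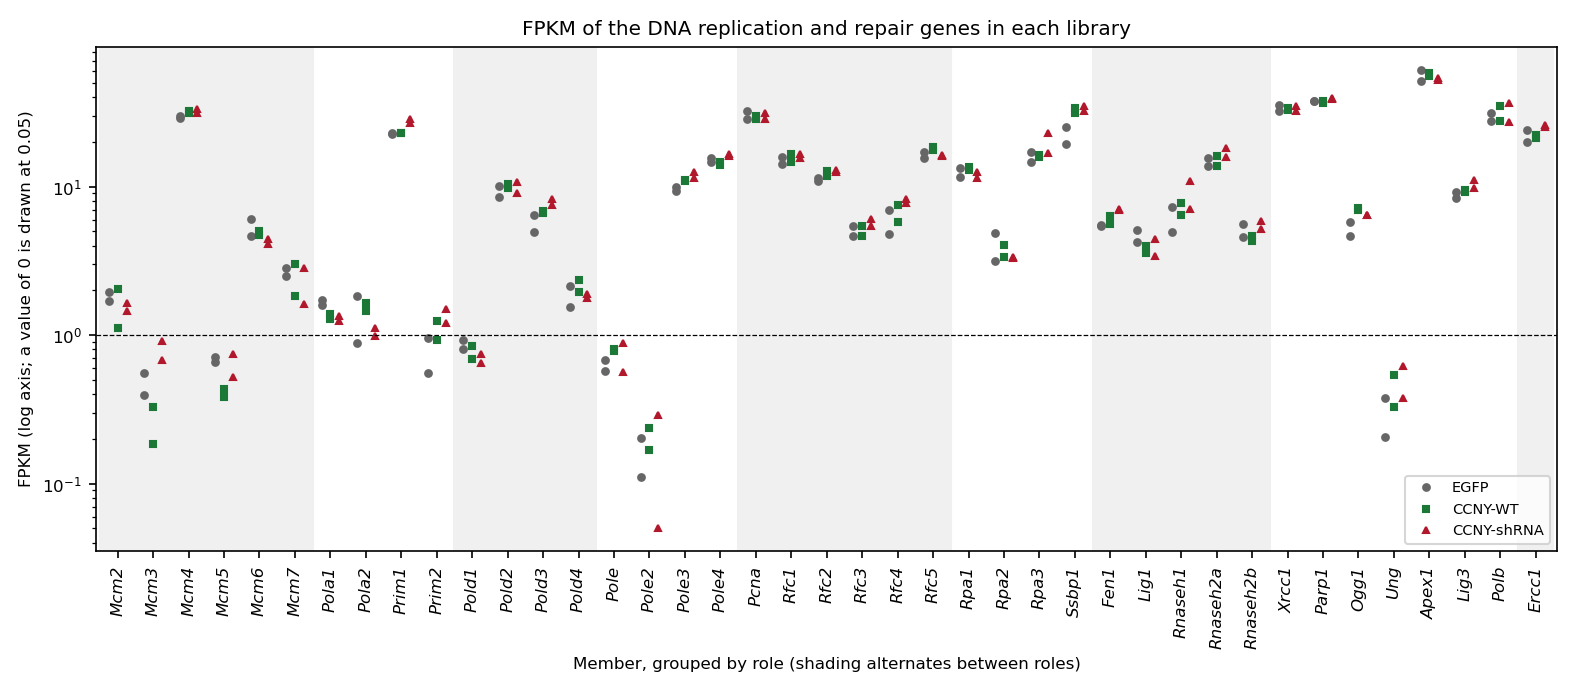
FPKM (log axis) of the 41 listed members in each of the 6 libraries, grouped by role and marked by condition, with a dashed line at an FPKM of 1. Mcm4, Prim1, Pole3 and Pole4 lie far above the catalytic or partner subunits of their complexes in every library.

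Within the helicase, Mcm4 stood far above the other subunits of the ring. Its FPKM was 28.97 and 29.999 in the EGFP pair, 31.4 and 32.1 with CCNY-WT, and 33.5 and 31.1 with CCNY-shRNA. Mcm3, the lowest by mean, was at 0.554 and 0.395 in the EGFP pair, 0.186 and 0.32998 with CCNY-WT, and 0.677 and 0.908 with CCNY-shRNA. Across the libraries Mcm4 exceeded Mcm6 by 4.77- to 7.58-fold, Mcm7 by 10.3- to 20.7-fold, Mcm2 by 14.8- to 28.4-fold and Mcm5 by 40.6- to 83.9-fold. Mcm3 was highest in both CCNY-shRNA libraries and lowest in both CCNY-WT libraries, but its values match few fragments, 9 and 7 with EGFP, 4 and 5 with CCNY-WT, and 9 and 17 with CCNY-shRNA, and it was not tested.

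In the polymerase alpha-primase complex, the catalytic primase subunit Prim1 was the highest, at 22.5 and 22.96 in the EGFP pair, 22.9 and 22.96 with CCNY-WT, and 28.3 and 26.9 with CCNY-shRNA. The regulatory primase subunit Prim2 was the lowest by mean, at 0.957 and 0.558 in the EGFP pair, 1.25 and 0.932 with CCNY-WT, and 1.49 and 1.21 with CCNY-shRNA. Prim1 exceeded Prim2 by 18.4- to 41.2-fold and the catalytic polymerase subunit Pola1 by 13.1- to 22.7-fold.

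The replicative polymerases showed low catalytic subunits beside higher accessory ones. Pold1, the catalytic subunit of polymerase delta, was at 0.8003 and 0.929 in the EGFP pair, 0.845 and 0.686 with CCNY-WT, and 0.652 and 0.741 with CCNY-shRNA. Pold2, an accessory subunit, was at 8.55 and 10.1 in the EGFP pair, 10.3 and 9.81 with CCNY-WT, and 9.1002 and 10.7 with CCNY-shRNA, which is 10.7- to 14.4-fold above Pold1. In polymerase epsilon the catalytic subunit Pole lay between 0.566 and 0.885, and the histone-fold subunit Pole4 was at 15.7 and 14.5 in the EGFP pair, 13.9 and 14.6 with CCNY-WT, and 16.6 and 16.1 with CCNY-shRNA. Pole2, the rarest member, was at 0.111 and 0.204 in the EGFP pair, 0.168 and 0.238 with CCNY-WT, and 0 and 0.289 with CCNY-shRNA, which match fragment numbers of 1 and 2 with EGFP, 2 and 2 with CCNY-WT, and 0 and 3 with CCNY-shRNA.

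The clamp and its loader were more even. Pcna, which also serves repair synthesis, was at 32.4 and 28.3 in the EGFP pair, 29.96 and 28.4 with CCNY-WT, and 28.5 and 31.3 with CCNY-shRNA, and its levels overlapped between all conditions. Rfc3, the lowest loader subunit, was at 5.42 and 4.67 in the EGFP pair, 5.42 and 4.62 with CCNY-WT, and 6.04 and 5.39 with CCNY-shRNA, and the other loader subunits had means between 6.84 and 16.9. Of the proteins that bind single strands, Rpa2 was lowest, at 3.15 and 4.89 in the EGFP pair, 4.03 and 3.38 with CCNY-WT, and 3.35 and 3.32 with CCNY-shRNA, while Rpa1 and Rpa3 had means of 12.6 and 17.2. Among the enzymes of lagging strand maturation, Rnaseh2a, the catalytic subunit of RNase H2, was highest, at 13.8 and 15.5 in the EGFP pair, 15.995 and 13.8 with CCNY-WT, and 18.04 and 15.8 with CCNY-shRNA. The replicative ligase Lig1 was lowest, at 4.22 and 5.099 in the EGFP pair, 3.98 and 3.58 with CCNY-WT, and 4.44 and 3.404 with CCNY-shRNA.

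Apex1, the abasic site nuclease, was the highest of all members, at 61.01 and 51.2 in the EGFP pair, 55.9 and 58.4 with CCNY-WT, and 52.3 and 53.6 with CCNY-shRNA. The strand break sensor Parp1, the scaffold Xrcc1 and the gap-filling Polb had means of 37.99, 33.6 and 30.8. Lig3, the ligase that acts with XRCC1, had a mean of 9.51 and exceeded Lig1 by 1.79- to 2.87-fold across the libraries. Ung, the uracil glycosylase, was the lowest repair member, at 0.204 and 0.374 in the EGFP pair, 0.53996 and 0.329 with CCNY-WT, and 0.375 and 0.6201 with CCNY-shRNA, and these values match fragment numbers of 2 and 4 with EGFP, 7 and 3 with CCNY-WT, and 3 and 7 with CCNY-shRNA.

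The promoters were searched because replication genes are classic targets of E2F, a family of factors that switches on genes for S phase. RefSeq (GRCr8) sequences of the 250 bases before the annotated start were used for 38 of the 41 members, and Mcm4, Rpa3 and Polb had none. E2F letters, TTTCGCGC or TTTGGCGC on either strand, were in 5 of 31 replication promoters and 0 of 7 repair promoters, against 1.22% of the promoters of 7802 tested genes and 0.67% of all 27457. All 5 genes had a mean FPKM under 5, a limit set after the values were seen, where 15 members with a promoter lie, and the letters were in 0 of the 23 above it. That limit falls between Mcm6 (mean 4.83) and the next member, Rnaseh2b (5.03), so the split does not test a link with level. The low Mcm3 had no match. The letters CCAAT, on either strand, were in 15 replication and 2 repair promoters, against 35.4% for tested genes. A match describes letters and is not a measured site.

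The stretches of 60 bases below hold the E2F matches, in capitals, and are shown because they belong to low helicase subunits and Pola1. They are read 5′ to 3′ on the strand of the gene and lie, in GRCr8, at chr4:122918095-122918154 (minus strand, Mcm2), chr19:13488574-13488633 (plus strand, Mcm5), chr13:42404458-42404517 (minus strand, Mcm6), chr12:22163197-22163256 (minus strand, Mcm7), chrX:62342494-62342553 (minus strand, Pola1). The match begins 14, 213, 139, 52, 172 bases before the start, in that order.
Mcm2: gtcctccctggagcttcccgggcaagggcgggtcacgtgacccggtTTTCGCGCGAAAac
Mcm5: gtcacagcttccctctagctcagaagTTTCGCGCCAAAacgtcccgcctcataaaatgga
Mcm6: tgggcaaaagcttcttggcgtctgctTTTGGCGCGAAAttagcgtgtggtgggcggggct
Mcm7: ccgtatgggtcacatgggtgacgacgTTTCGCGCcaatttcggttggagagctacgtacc
Pola1: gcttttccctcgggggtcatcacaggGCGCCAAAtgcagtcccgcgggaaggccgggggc
In Mcm2, Mcm5 and Mcm6 the capitals hold 2 overlapping matches, 1 on each strand.

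Knockdown was compared with EGFP to ask how these genes respond to a loss of Cyclin Y. No member passed the test. The members furthest above EGFP were Ssbp1, Rnaseh1, Pold3, Rfc4, Prim2 and Fen1, and those furthest below were Pola1 and Pola2. Values under 1 were set to 1 before the log2 step, and limma was fitted to all 6 libraries. Of the 35 tested members, 0 passed an adjusted p of 0.05 in either direction, against 0.167% of all genes tested that were higher, 0.579% that were lower and 0.746% together. At an unadjusted p under 0.05, 6 were higher (background 9.2%) and 0 lower (background 9.36%, 18.6% for both).

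By the fold threshold that the study set for knockdown, a log2 difference of 0.33, applied here without a test, 6 members lay above it (background 5.52%) and 2 below (background 7.59%). Without EGFP replicate 2, 4 lay below, Mcm2, Mcm6, Mcm7 and Pola1. No background was computed with a library left out. Of the 35, 23 had a log2 change above 0 (background 50.2%). Both CCNY-shRNA libraries exceeded both EGFP libraries for 15 (background 23.9%) and were under both for 3 (background 24.5%). The median log2 change was 0.12 over tested replication members and 0.10 over tested repair members, and 0.0887 and 0.0824 over those listed, against 0.00 over all genes tested.

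**Figure D2:**
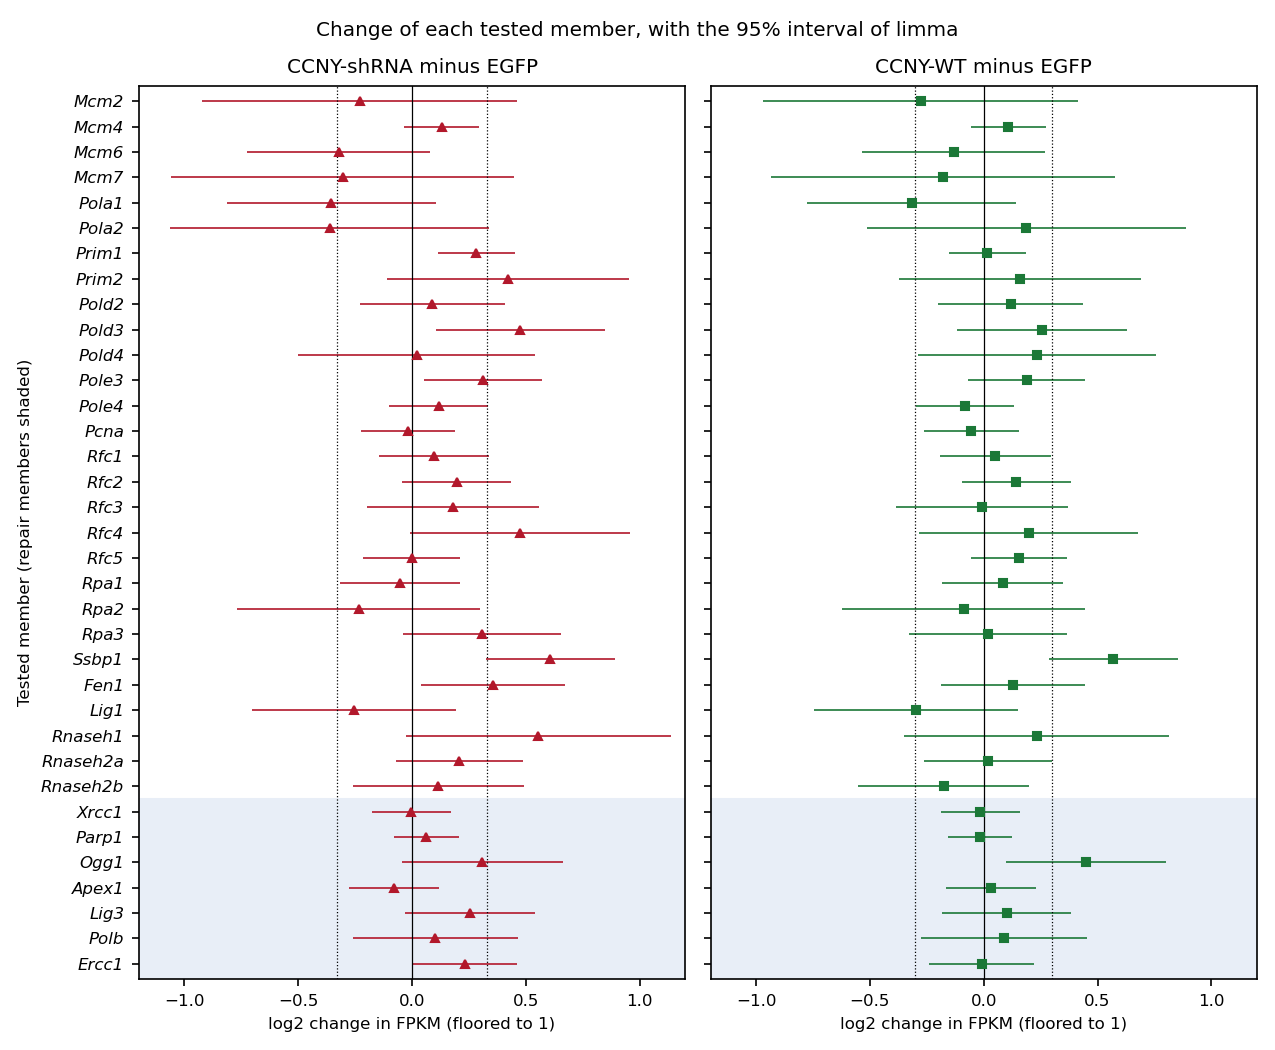
Log2 change of the 35 tested members in CCNY-shRNA (left) and CCNY-WT (right) against EGFP, with the 95% interval of limma as bars and dotted lines at the fold thresholds of 0.33 and 0.3. Ssbp1 has the largest value in both panels, at 0.61 and 0.57.

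Ssbp1, which binds single-stranded mitochondrial DNA, came closest to the threshold. Its FPKM was 25.03 and 19.3 in the EGFP pair, 31.4 and 33.9 with CCNY-WT, and 32.2 and 34.8 with CCNY-shRNA. Both EGFP libraries were below the other 4. The log2 change with knockdown was 0.61 (SE 0.122, 95% interval 0.32 to 0.89, limma adjusted p = 0.0717), and it was 0.42 without EGFP replicate 2 and 0.80 without EGFP replicate 1.

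Among the enzymes that remove primers, Rnaseh1, an RNase H of nucleus and mitochondria, was at 4.95 and 7.25 in the EGFP pair, 6.41 and 7.73 with CCNY-WT, and 10.9 and 7.102 with CCNY-shRNA. The groups overlapped, and the log2 change of 0.55 (SE 0.251, limma adjusted p = 0.289) was 0.25 without CCNY-shRNA replicate 1, 0.28 without EGFP replicate 1, 0.83 without EGFP replicate 2 and 0.86 without CCNY-shRNA replicate 2. Fen1, the flap endonuclease, was at 5.49 and 5.41 in the EGFP pair, 5.604 and 6.33 with CCNY-WT, and 6.91 and 7.02 with CCNY-shRNA. Both CCNY-shRNA libraries were above the other 4, with a log2 change of 0.35 (SE 0.137, limma adjusted p = 0.219). With log2(FPKM + 1) it was 0.305, under the fold threshold.

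Of the polymerase subunits, Pold3, an accessory subunit of polymerase delta, was at 4.95 and 6.45 in the EGFP pair, 6.64 and 6.84 with CCNY-WT, and 8.199 and 7.53 with CCNY-shRNA. Both CCNY-shRNA libraries were the highest, with a log2 change of 0.48 (SE 0.161, limma adjusted p = 0.178), 0.29 without EGFP replicate 1, which is under the fold threshold, and 0.67 without EGFP replicate 2. Pole3, a histone-fold subunit of polymerase epsilon, was at 9.92 and 9.35 in the EGFP pair, 11.1 and 10.9 with CCNY-WT, and 11.4 and 12.6 with CCNY-shRNA. EGFP was lowest in both libraries, and the log2 change was 0.31 (SE 0.111, limma adjusted p = 0.194).

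Both primase subunits lay above EGFP with knockdown. For Prim1 the CCNY-shRNA libraries exceeded the other 4, by a log2 change of 0.28 (SE 0.0731, 95% interval 0.11 to 0.45, limma adjusted p = 0.112). For Prim2, whose EGFP values match 11 and 7 fragments, the log2 change was 0.42 (SE 0.2297, limma adjusted p = 0.368), 0.79 with log2(FPKM + 0.1), and 0.27, under the fold threshold, without CCNY-shRNA replicate 1. The polymerase subunits lay below. Pola1 was at 1.72 and 1.604 in the EGFP pair, 1.39 and 1.27 with CCNY-WT, and 1.25 and 1.35 with CCNY-shRNA, so that EGFP was highest in both libraries, and its log2 change was -0.35 (SE 0.198, limma adjusted p = 0.3799). Pola2 was at 0.886 and 1.84 in the EGFP pair, 1.46 and 1.64 with CCNY-WT, and 0.984 and 1.12 with CCNY-shRNA, and the EGFP libraries enclosed all the others. Its log2 change of -0.36 (SE 0.303, limma adjusted p = 0.566) turned to 0.0799 without EGFP replicate 2. It was -0.18 with log2(FPKM + 1) and -0.27 with log2(FPKM + 0.1), both short of the fold threshold.

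**Figure D3:**
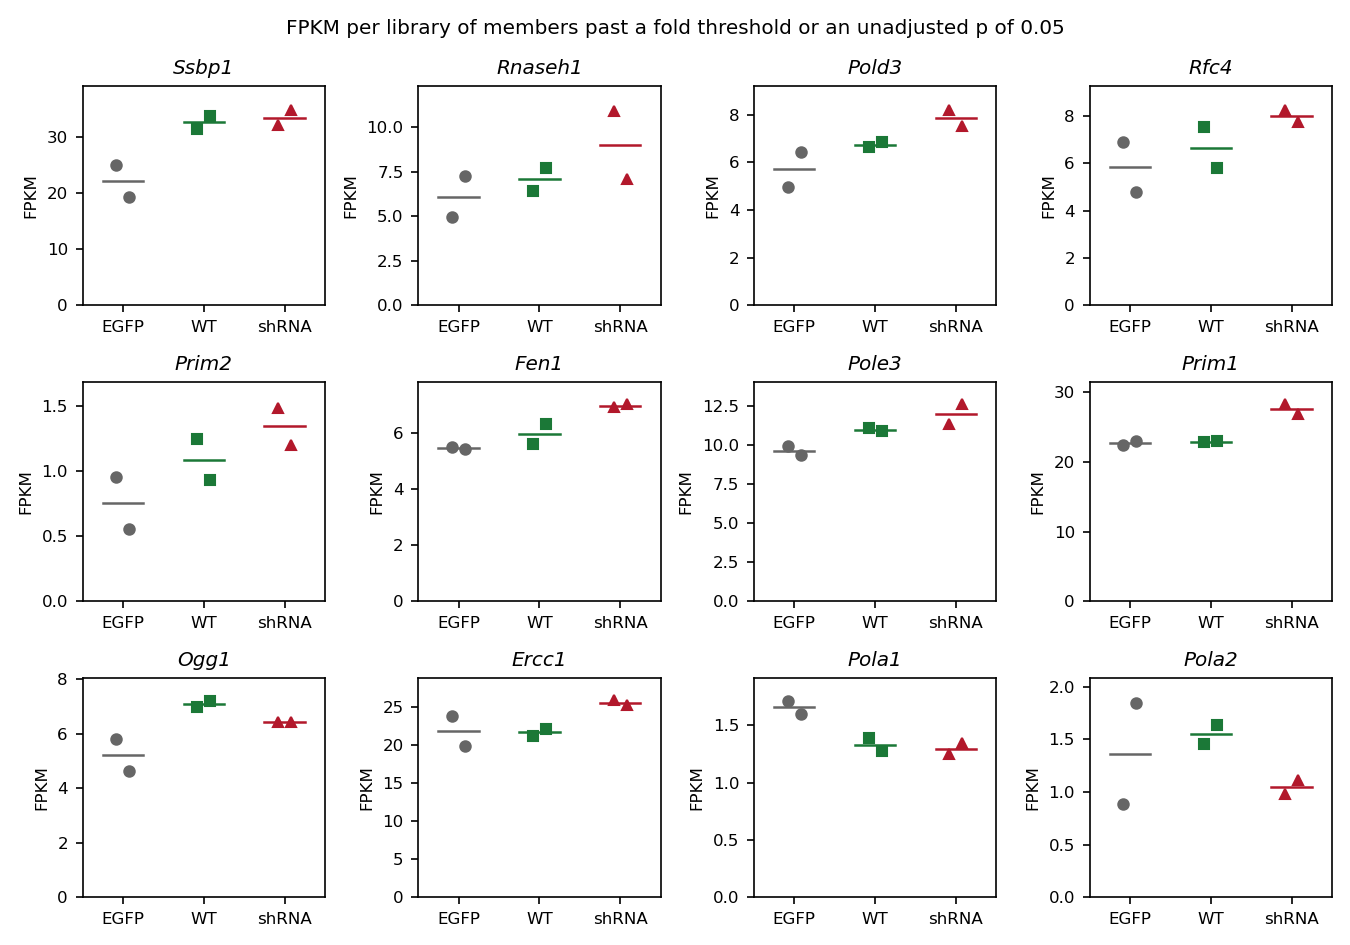
FPKM (linear axes from 0) of the members past a fold threshold or an unadjusted p of 0.05 in any comparison, with a point per library and a bar at the mean of each condition. Fen1 and Prim1 are highest in both CCNY-shRNA libraries, and Ssbp1 is lowest in both EGFP libraries.

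In the clamp loader, Rfc4 was at 6.92 and 4.79 in the EGFP pair, 7.53 and 5.79 with CCNY-WT, and 8.25 and 7.75 with CCNY-shRNA. Its CCNY-shRNA libraries were the highest, with a log2 change of 0.47 (SE 0.208, limma adjusted p = 0.277), but the EGFP libraries stood further from each other than that, and the change was 0.21 without EGFP replicate 2 and 0.74 without EGFP replicate 1. Rfc1, Rfc2, Rfc3 and Rfc5 had log2 changes of 0.0955, 0.20, 0.18 and -0.00185, and Pcna of -0.0185 (95% interval -0.23 to 0.19). In the helicase the log2 changes of Mcm2, Mcm4, Mcm6 and Mcm7 were -0.23, 0.13, -0.32 and -0.30. With 1 library left out Mcm7 ranged over -0.71 to 0.10, turning above EGFP without CCNY-shRNA replicate 1, Mcm6 over -0.51 to -0.13 and Mcm2 over -0.33 to -0.13. The log2 changes of the other tested replication members lay between -0.25 (Lig1) and 0.31 (Rpa3), and that of Rpa3 ranged over 0.0863 to 0.53 with 1 library left out.

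Of the 7 tested repair members, 0 passed the fold threshold with knockdown (background 5.52% above and 7.59% below), while 2 did without EGFP replicate 1 (Ogg1 and Ercc1) and 1 without CCNY-shRNA replicate 2 (Lig3). With log2(FPKM + 0.1) Ung, which the floor of 1 keeps at no change, also passed. The background was not computed in these alternative settings. Ercc1, a nuclease subunit of nucleotide excision repair, was at 23.9 and 19.9 in the EGFP pair, 21.2 and 22.1 with CCNY-WT, and 25.9 and 25.3 with CCNY-shRNA. Its CCNY-shRNA libraries were the highest, with a log2 change of 0.23 (SE 0.0992, limma adjusted p = 0.266). Ogg1 and Lig3 had log2 changes of 0.31 and 0.26. With 1 library left out these 3 changes went down to 0.10 (Ercc1) and 0.15 (Ogg1), both without EGFP replicate 2, and 0.16 (Lig3, without CCNY-shRNA replicate 1). For the abundant Parp1, Xrcc1, Apex1 and Polb the 95% intervals of the log2 change were -0.0776 to 0.20, -0.18 to 0.17, -0.28 to 0.12 and -0.26 to 0.46. The difference between replication and repair members was not tested.

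Overexpression was compared with EGFP for the opposite case, a gain of Cyclin Y. Ssbp1 and Ogg1 lay furthest above EGFP and Pola1 furthest below. In limma 0 of 35 members passed the adjusted threshold (background 0.00982%). At an unadjusted p under 0.05, 2 were higher (background 3.83%) and 0 lower (background 3%, 6.83% for both). Past a log2 difference of 0.3, 2 lay above (background 4.59%) and 1 below (background 3.76%). Those above were 5 without EGFP replicate 2 and 5 without CCNY-WT replicate 2. Those below were 4 without EGFP replicate 2, and 2 without EGFP replicate 1, CCNY-WT replicate 1 or CCNY-WT replicate 2. For these counts with a library left out no background was computed. Of the 35, 22 had a log2 change above 0 (background 51.4%). The groups did not overlap for 9 that were higher (background 20.3%) and 2 that were lower (background 19.2%). The median log2 change was 0.0666 over tested replication members and 0.03199 over tested repair members, against 0.004103 over all genes tested. It was 0.00339 for replication without EGFP replicate 1, and for repair -0.0205, the opposite direction, without EGFP replicate 2, 0.0205 and 0.00165 without CCNY-WT replicate 1 or 2, and 0.12 without EGFP replicate 1.

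For Ssbp1 the log2 change with overexpression was 0.57 (SE 0.122, 95% interval 0.29 to 0.85, limma adjusted p = 0.487), beside 0.61 with knockdown, and both comparisons share the EGFP libraries. Ogg1, the glycosylase for oxidised guanine, was at 5.795 and 4.64 in the EGFP pair, 6.99 and 7.19 with CCNY-WT, and 6.42 and 6.43 with CCNY-shRNA. EGFP was lowest in both libraries, and the log2 change was 0.45 (SE 0.152, limma adjusted p = 0.725), or 0.29 without EGFP replicate 2. For Pola1 it was -0.32 (SE 0.198, limma adjusted p = 0.805).

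Knockdown was also set directly against overexpression, where the EGFP libraries enter only the estimate of the spread. In limma 0 of 35 members passed (background 0.0196% higher, 0.196% lower, 0.216% together). Prim1 and Ercc1, the 2 with an unadjusted p under 0.05 (background 5.05% higher, 7.12% lower, 12.2% together), had log2 differences of 0.27 (SE 0.0731, limma adjusted p = 0.241) and 0.24 (SE 0.0992, limma adjusted p = 0.392). Ssbp1 differed by 0.0379 (95% interval -0.24 to 0.32) and Ogg1 by -0.14 (95% interval -0.49 to 0.21). Of the 35, 24 were higher in CCNY-shRNA (background 50.4%), with groups that did not overlap for 11 higher (background 20.3%) and 8 lower (background 21.9%).

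Other genes of these pathways, in 7 lists, gave 71 tested of 86 listed, and 0 passed limma's adjusted threshold in any of the 3 comparisons. With knockdown 5 of the 71 were higher (background 9.2%) and 4 lower (background 9.36%) at an unadjusted p under 0.05, and with overexpression 1 (background 3.83%) and 1 (background 3%). In the direct comparison these counts were 2 (background 5.05%) and 3 (background 7.12%). All 6 counts are smaller shares of the 71 than the background. They are too small to be set apart from it, and the comparisons share libraries.

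**Figure D4:**
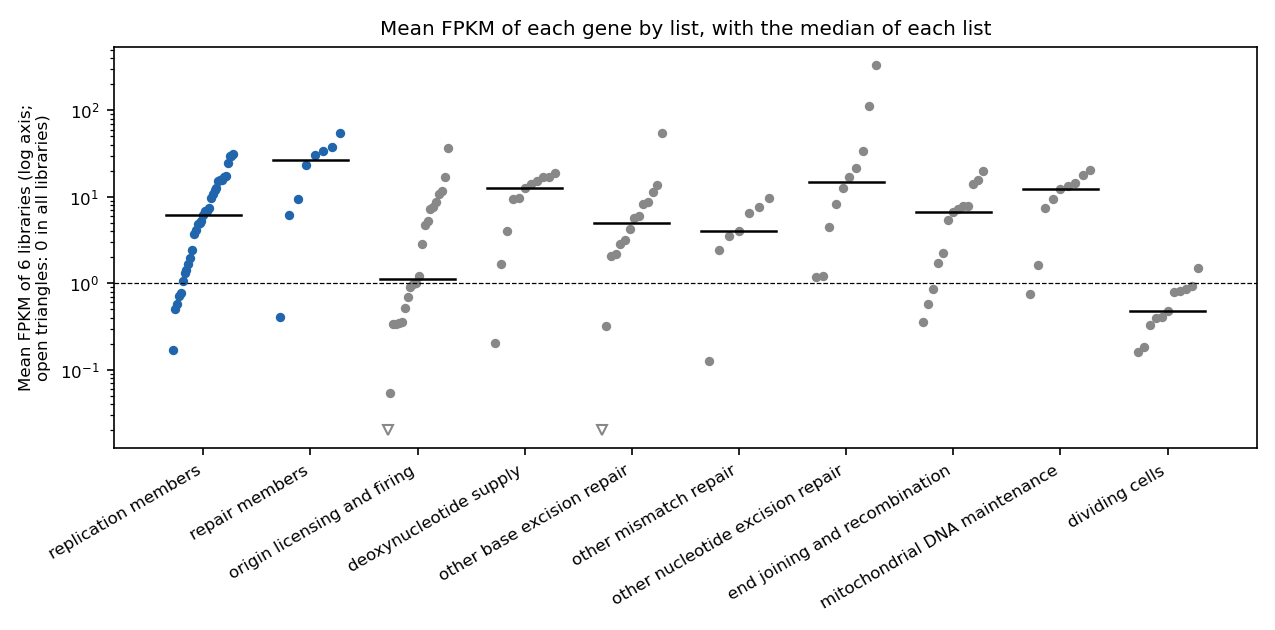
Mean FPKM over the 6 libraries (log axis) of each listed gene, by list, with the median of each list as a bar and genes at 0 as open triangles at the bottom. The median of the origin licensing list is 1.12, that of the dividing cell markers 0.475 and that of the repair members 26.96.

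Factors that license and fire origins had a median mean FPKM of 1.12, and 8 of 22 listed stayed under 1 throughout, with Cdc45 listed at 0. Gins2, a partner of the helicase, was at 7.97 and 8.15 in the EGFP pair, 7.23 and 8.14 with CCNY-WT, and 6.17 and 6.19 with CCNY-shRNA, and both CCNY-shRNA libraries were the lowest, with a log2 change of -0.38 (SE 0.128, limma adjusted p = 0.176). Orc6, of the origin recognition complex, had a log2 change of 0.34 (SE 0.172, limma adjusted p = 0.329). In deoxynucleotide supply, Dtymk, the thymidylate kinase, had a log2 change of 0.38 (SE 0.145, limma adjusted p = 0.217), and Rrm2b, a ribonucleotide reductase subunit, of -0.21 (SE 0.131, limma adjusted p = 0.423).

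In base excision repair beyond the members, Tdg, a glycosylase for mismatched thymine, was at 53.3 and 48.5 in the EGFP pair, 53.9 and 52.2 with CCNY-WT, and 57.9 and 59.002 with CCNY-shRNA, a log2 change with knockdown of 0.20 (SE 0.0653, limma adjusted p = 0.166). Nthl1, a glycosylase for oxidised pyrimidines, was at 3.76 and 4.13 in the EGFP pair, 3.41 and 1.61 with CCNY-WT, and 1.61 and 2.602 with CCNY-shRNA, a log2 change of -0.94 (SE 0.367, limma adjusted p = 0.222). In mismatch repair, Pms1 had a log2 change of -0.64 (SE 0.221, limma adjusted p = 0.184). In nucleotide excision repair, Rad23b and Ercc8 had 0.23 (SE 0.0651, limma adjusted p = 0.132) and 0.25 (SE 0.0856, limma adjusted p = 0.181).

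Xrcc6, a subunit of the end-binding Ku protein, had the smallest p of the 7 lists with knockdown and was at 18.3 and 18.7 in the EGFP pair, 18.7 and 17.5 with CCNY-WT, and 22.9 and 23.5 with CCNY-shRNA. Both CCNY-shRNA libraries were above the other 4, with a log2 change of 0.32 (SE 0.0815, limma adjusted p = 0.104). Rad52, of recombination, had a log2 change of -0.48 (SE 0.159, limma adjusted p = 0.172). In the maintenance of mitochondrial DNA, where Ssbp1 acts, 8 of 9 listed genes were tested. At an unadjusted limma p under 0.05 there were 0 with knockdown (background 18.6%) and 0 with overexpression (background 6.83%). These 8 genes are too few to set the counts apart from the background. Tfam, which packages mitochondrial DNA, was at 19.9 and 19.3 in the EGFP pair, 20.5 and 22.01 with CCNY-WT, and 19.4 and 22.96 with CCNY-shRNA, and its libraries overlapped between EGFP and CCNY-shRNA. Top1mt, the mitochondrial topoisomerase, had a log2 change with knockdown of 0.20 (SE 0.0994, limma adjusted p = 0.322).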

How the data were processed

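The authors aligned paired-end reads of 6 poly-A libraries to rat genome rn4 and estimated expression as FPKM, which was deposited as 1 table of genes by library. They selected differentially expressed genes with the cuffdiff module of Cufflinks and by fold, and those calls were not used here. The submitters' processing notes name TopHat2 2.0, Bowtie2 2.1.0, SAMtools 0.1.19, Cufflinks 2.2.1 and R 3.1.0. The annotation, the scaling between libraries and the use of strand in counting are not given in the sources used here, so overlapping genes on opposite strands may not be told apart.

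From these deposited FPKM, log2 values floored at 1 were tested with limma 3.58.1 in R 4.3.3 (trended empirical Bayes, all 6 libraries, Benjamini-Hochberg adjustment over 10188 genes reaching 1 FPKM in 2 libraries), after tests on simulated data. Log2 changes near the floor can be understated or, as for Pola2 with knockdown, overstated. Fragment numbers and relative depth came from steps between low values, whole within 0.02 for 96.8% of 772 genes under 0.3 FPKM, against 0.389% once values were shifted at random. Fragment numbers are the smallest that fit and cover counting only. Values in every library are given for Ccny, members past a fold threshold (0.33 or 0.3) or an unadjusted p of 0.05, and the highest and lowest of each role. From other lists the 2 genes of smallest p in CCNY-shRNA are named. A result that this rule would name is not reported here. Genes named beyond this were chosen after their values were seen. Members and lists were chosen with earlier results of these data known. Alternatives changed the offset, filter, scaling, trend, libraries fitted and replicate block, or left out each library. Promoters came from RefSeq (GRCr8). Python 3.11.15 with pandas 2.3.3, numpy 2.4.6 and matplotlib 3.10.9 was used.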

Additional observations from a re-analysis of the deposited data

How the results depend on the processing

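In all 15 alternatives 0 members passed limma's adjusted threshold in each of the 3 comparisons, and the smallest adjusted p of a member ranged over 0.0586 to 0.343 for CCNY-shRNA, 0.404 to 1 for CCNY-WT and 0.222 to 0.619 between the 2. The 16 named changes were chosen by their size or unadjusted p. Changing the filter, the trend, the libraries fitted or the replicate block cannot alter a log2 change. Leaving out a library outside the comparison cannot either. Of 240 values of the 16 named changes, 239 kept their direction, many of them fixed in this way. The exception was Pola2 in CCNY-shRNA, at 0.0799 without EGFP replicate 2 (-0.80 to 0.0799 with each library left out). Of 89 other changes, 42 changed sign in at least 1 alternative. Deviations of same-numbered replicates correlated at 0.144 (EGFP and CCNY-WT), -0.0286 (EGFP and CCNY-shRNA) and 0.137 (CCNY-WT and CCNY-shRNA) over 8055 genes. These correlations do not settle whether replicates of the same number shared a culture or a batch. With the replicate block 0 members passed, and 39 genes were called for CCNY-shRNA against 76 without it.

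The counts by fold moved with the offset and with single libraries, and their background was not computed under the alternatives. For CCNY-shRNA, 0 members lay below the fold threshold with log2(FPKM + 1), 1 with quantile normalization and 2 to 4 with a library left out, where 5 to 8 lay above it. For CCNY-WT, 4 lay above with log2(FPKM + 0.1) and 2 to 5 with a library left out. There, 0 lay below with log2(FPKM + 1), 2 with log2(FPKM + 0.1), 2 with quantile normalization and 1 to 4 with a library left out. The median of replication members in CCNY-shRNA was 0.0887 with no filter and 0.0959 to 0.16 with a library left out. That of repair members was 0.0824 with no filter, 0.12 with upper quartile scaling and 0.0582 to 0.19 with a library left out. In CCNY-WT the 2 medians ranged over 0.00339 to 0.11 and -0.0205 to 0.12. The cause was not tested. Members under an FPKM of 1 in every library were at the floor and outside the test, so floored values show no change for them. With log2(FPKM + 0.1) some passed the fold threshold. For CCNY-shRNA these were Mcm3 and Ung above and Pole2 below, and for CCNY-WT Ung above and Mcm3 and Mcm5 below.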

Other observations

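Neil3, a glycosylase best known from dividing cells, stayed under an FPKM of 1 and was not tested. It was at 0.0937 and 0.172 in the EGFP pair, 0.283 and 0.1005 with CCNY-WT, and 0.687 and 0.569 with CCNY-shRNA, so that both CCNY-shRNA libraries were above the other 4. Both CCNY-shRNA libraries exceeded both EGFP libraries for 23.9% of all genes tested. Levels this low can rest on few fragments, and fragment numbers were not derived for Neil3. It was chosen after its values were seen.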
